A study of Mus musculus with 12 samples.

Results

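Ppic, Lrp12, Eps8, Igf2r, Kcnq1ot1 and Tnfrsf8 are 6 of the 24411 gene symbols measured by RNA sequencing in mouse leukemia cells treated with ruxolitinib, with GSK-LSD1 or with both. They were picked by symbol, outside the neutrophil granule genes, because their values differed between ruxolitinib and DMSO or between the combination and GSK-LSD1 alone. Those differences are therefore given below as descriptions, without a test. All 6 had a mean of at least 10 normalised read counts over the libraries and entered the test of 11484 genes.

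The cells were BALB/c bone marrow leukemia cells with mutant CSF3R and CEBPA, which every group carried, grown in culture for 24 h with each treatment. The 4 groups were the combination of 50 nM ruxolitinib with 2 nM GSK-LSD1, 50 nM ruxolitinib alone, 2 nM GSK-LSD1 alone, and DMSO, the vehicle, with 3 libraries each. Whether the cells were 1 clone, and whether replicates came from separate cultures, is not given in the sources used here, so p-values measure the spread between these libraries. Ruxolitinib inhibits the kinases JAK1 and JAK2, which pass the signal of cytokine receptors such as CSF3R, the G-CSF receptor, to STAT transcription factors. GSK-LSD1 inhibits the histone demethylase LSD1, which GFI1 recruits to genes that it represses in myeloid cells. CEBPA is a transcription factor of granulocyte differentiation.

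The 6 genes belong to several systems. LRP12 and CD30 (the product of Tnfrsf8) are membrane proteins of the LDL receptor and TNF receptor families, and IGF2R carries lysosomal enzymes tagged with mannose 6-phosphate and removes the growth factor IGF2. Cyclophilin C (Ppic) is a peptidyl-prolyl isomerase of the secretory pathway, and EPS8 caps and bundles actin filaments. Kcnq1ot1 is a long nuclear RNA made from the paternal chromosome, where it keeps neighbouring genes of its imprinted cluster silent.

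Among the libraries, whole multiples of each library's value step summed to 8260995 to 8528400. Libraries with GSK-LSD1 and those without separated on principal component 1 (54.7% of the variance). Ruxolitinib replicate 2 and combination replicate 3 stood apart on component 2, at -19.7 and -17.3, and their deviations from their groups rose with transcript GC content (Spearman rho over genes 0.42 and 0.57, against -0.43 to 0.28 in the other 10). Fold changes also rose with GC content over 11053 genes, with Spearman rho 0.42 for ruxolitinib against DMSO and 0.27 for the combination against GSK-LSD1. Deviations of the DMSO libraries from the mean of all libraries had rho -0.26 to -0.16 with GC content. All 10 neutrophil progenitor markers were measured, and their summed level was 26812 to 31574 in combination, 25167 to 31430 in ruxolitinib, 20148 to 21059 in GSK-LSD1 and 21124 to 22002 in DMSO libraries. Most of this sum was Mpo and Cebpa, with means of 12307 and 9780 in combination libraries, and it does not show single genes. Of the 10, 4 rose and 4 fell with GSK-LSD1 on average. Summed levels were 74.27 to 105.3 over all 12 libraries for 8 T and NK cell markers (3 at 0 in every library, most of the rest Lck) and 0.9972 to 8.927 for 7 B and plasma cell markers (2 at 0). Macrophage markers (7, of which 1 at 0) summed to 471.5 to 539.0 in combination, 313.3 to 345.2 in ruxolitinib, 471.8 to 493.5 in GSK-LSD1 and 345.6 to 396.2 in DMSO libraries. Erythroid markers (7, of which 3 at 0) summed to 124.3 to 253.6, 270.6 to 316.2, 131.4 to 140.6 and 240.1 to 284.2 in the same 4 groups. Mast cell and basophil markers (7, none at 0) summed to 24551 to 26856 in combination, 24388 to 26548 in ruxolitinib, 25369 to 27137 in GSK-LSD1 and 21318 to 23491 in DMSO libraries. Most of that sum was Cpa3 and Gata2, with means of 12841 and 6008 in combination libraries. Stromal and endothelial markers (7, of which 4 had a mean under 1, with 2 of these at 0) summed to 3823 to 3867, 2917 to 3381, 3572 to 3818 and 2988 to 3073. Nearly all of this sum was Pecam1, with means of 3787, 3092, 3602 and 2992, and it does not show the other markers. The part of these levels in the results below was not tested, and in bulk RNA fewer cells of a type cannot be told apart from less RNA per cell.

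**Figure D1:**
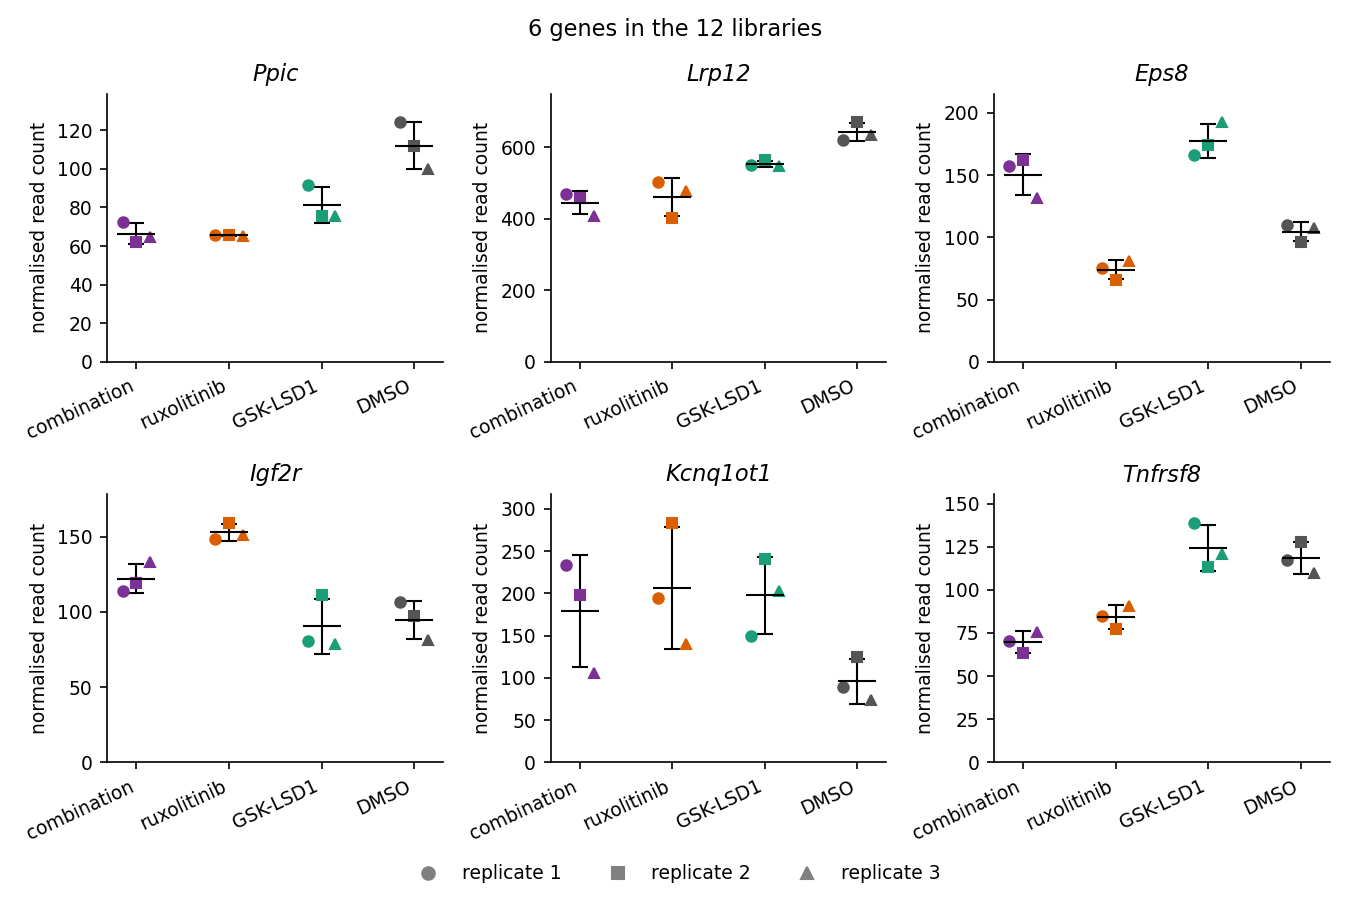
Normalised read counts of the 6 genes by library, with a panel per gene and the groups from left to right as combination, ruxolitinib, GSK-LSD1 and DMSO. Points are libraries (circle replicate 1, square replicate 2, triangle replicate 3), bars are means of 3 libraries and error bars are SD. Ruxolitinib libraries sit below all DMSO libraries for Ppic, Lrp12, Eps8 and Tnfrsf8 and above them for Igf2r and Kcnq1ot1.

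Promoters of 3 of the 6 genes were taken from the RefSeq table of GRCm38.p6, each from 250 bases before to 50 bases after the annotated start. They are shown because STAT proteins and C/EBP proteins bind known motifs and the GFI1 core motif is tied to LSD1, and matches to these motifs and to the CCAAT box, which NF-Y binds, are in capitals. The Igf2r promoter lies at chr17:12769657-12769956, that of Tnfrsf8 at chr4:145315115-145315414 and that of Kcnq1ot1 at chr7:143296498-143296797, all on the minus strand.
Igf2r: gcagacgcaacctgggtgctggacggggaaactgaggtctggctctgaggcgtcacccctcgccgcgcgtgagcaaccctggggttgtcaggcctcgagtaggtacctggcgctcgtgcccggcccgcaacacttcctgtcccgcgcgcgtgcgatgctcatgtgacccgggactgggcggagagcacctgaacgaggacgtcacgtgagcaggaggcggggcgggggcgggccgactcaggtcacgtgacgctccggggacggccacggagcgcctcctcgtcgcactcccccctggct
Tnfrsf8: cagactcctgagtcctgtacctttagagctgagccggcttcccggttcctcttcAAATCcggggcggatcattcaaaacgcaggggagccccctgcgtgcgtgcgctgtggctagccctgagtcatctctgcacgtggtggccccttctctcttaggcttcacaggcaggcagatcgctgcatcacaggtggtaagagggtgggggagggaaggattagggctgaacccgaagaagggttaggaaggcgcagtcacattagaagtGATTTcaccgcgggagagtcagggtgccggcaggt
Kcnq1ot1: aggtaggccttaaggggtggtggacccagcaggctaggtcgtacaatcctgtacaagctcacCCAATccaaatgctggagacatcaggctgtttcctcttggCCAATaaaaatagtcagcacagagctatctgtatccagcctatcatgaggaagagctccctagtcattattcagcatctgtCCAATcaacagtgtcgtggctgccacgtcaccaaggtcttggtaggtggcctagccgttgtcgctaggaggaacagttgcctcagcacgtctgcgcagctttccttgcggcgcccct
The letters searched, on both strands, were TTCNNNGAA for STAT, TTGCNNAA for C/EBP, CCAAT for the CCAAT box and AAATC for the GFI1 core. Kcnq1ot1 held the CCAAT box 3 times, starting at positions -188, -148 and -67 from the start, and 37.4% of 32851 RefSeq promoters of the same length held it. Tnfrsf8 held the GFI1 core at -196 and, on the opposite strand, at 15 bases after the start, and 35.9% of promoters held it. These 3 windows did not contain the letters of the STAT motif, present in 8.3% of promoters, or of the C/EBP motif, present in 10.8%, and no matches overlapped. The Igf2r window had 34 CpG dinucleotides, more than 92.3% of promoters, against 15 for Tnfrsf8, 9 for Kcnq1ot1 and a median of 7.

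Among the membrane proteins, Lrp12, a member of the LDL receptor family with CUB domains, was lower with ruxolitinib in both backgrounds. Lrp12 had 469.1, 458.7 and 408.7 normalised counts in combination libraries, 504.4, 401.7 and 477.3 in ruxolitinib libraries, 551.5, 563.3 and 546.5 in GSK-LSD1 libraries and 621.7, 670.2 and 634.7 in DMSO libraries. Every library with ruxolitinib was below every library without it, every GSK-LSD1 library was below every DMSO library, and the combination and ruxolitinib libraries overlapped. Means were 445.5 ± 32.3 in combination, 461.1 ± 53.2 in ruxolitinib, 553.8 ± 8.66 in GSK-LSD1 and 642.2 ± 25.1 in DMSO libraries (SD, n = 3 each). The log2 fold change, on the scale of normalised count plus 1 used throughout, was -0.48 ± 0.08 (SE) for ruxolitinib against DMSO and -0.32 ± 0.08 for the combination against GSK-LSD1. Lrp12 lies on chromosome 15, from 39870589 to 39943994 of GRCm38, on the minus strand.

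Igf2r, the cation-independent mannose 6-phosphate receptor, is expressed from the maternal chromosome in most mouse tissues and was higher with ruxolitinib. It had 114.1, 119.4 and 133.3 normalised counts in combination libraries, 148.2, 159.3 and 151.2 in ruxolitinib libraries, 80.93, 111.5 and 78.78 in GSK-LSD1 libraries and 106.3, 97.02 and 81.20 in DMSO libraries. Libraries with ruxolitinib were all above those without, and ruxolitinib libraries were all above combination libraries, while GSK-LSD1 and DMSO libraries overlapped. The log2 fold change was 0.69 ± 0.14 for ruxolitinib against DMSO and 0.45 ± 0.14 for the combination against GSK-LSD1. Igf2r lies on chromosome 17, from 12682406 to 12769664, on the minus strand. The non-coding gene Airn, which silences Igf2r on the paternal chromosome, overlaps it by 28354 bp on the plus strand, and had 0.9949 normalised counts in ruxolitinib replicate 1 and 0 in the other 11 libraries. Whether reads were counted by strand is not given in the sources used here.

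Tnfrsf8 encodes CD30, a TNF receptor superfamily member that signals through TRAF proteins, and it was lower with ruxolitinib alone and beside GSK-LSD1. It had 70.42, 63.14 and 75.58 normalised counts in combination libraries, 84.56, 77.06 and 90.91 in ruxolitinib libraries, 138.9, 113.5 and 120.7 in GSK-LSD1 libraries and 117.2, 128.0 and 109.9 in DMSO libraries. Combination libraries were the lowest, below all ruxolitinib libraries, and these were below all GSK-LSD1 and DMSO libraries, which overlapped. The combination averaged 69.71 ± 6.25 and GSK-LSD1 124.3 ± 13.1, a log2 fold change of -0.82 ± 0.13. Ruxolitinib averaged 84.18 ± 6.94 and DMSO 118.4 ± 9.12, a log2 fold change of -0.49 ± 0.13. The gene lies on chromosome 4, from 145267137 to 145315164, on the minus strand.

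Among the intracellular proteins, Ppic was lowest in both groups with ruxolitinib, at nearly the same level. Ppic had 72.40, 62.15 and 64.64 normalised counts in combination libraries, 65.66, 65.76 and 65.22 in ruxolitinib libraries, 91.92, 75.64 and 75.79 in GSK-LSD1 libraries and 124.1, 112 and 100 in DMSO libraries. DMSO libraries were above all others, GSK-LSD1 libraries came next, and the combination and ruxolitinib libraries overlapped. The log2 fold change was -0.76 ± 0.14 for ruxolitinib against DMSO and -0.28 ± 0.14 for the combination against GSK-LSD1. The coefficient of variation of the 3 ruxolitinib libraries, 0.437%, was below the 12.4% that read counting alone gives at this level; the SE of the fit pools the spread over groups and genes. Ppic lies on chromosome 18, from 53406332 to 53418115, on the minus strand.

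Eps8 had opposite directions with the 2 inhibitors: it was lower with ruxolitinib and higher with GSK-LSD1. EPS8 also joins ABI1 and SOS1 in a complex that activates the GTPase Rac. Eps8 had 157.7, 161.8 and 131.3 normalised counts in combination libraries, 75.61, 65.76 and 81.03 in ruxolitinib libraries, 165.8, 174.2 and 192.5 in GSK-LSD1 libraries and 110.2, 96.02 and 107.9 in DMSO libraries. The 4 groups did not overlap, with GSK-LSD1 highest, then the combination, DMSO and ruxolitinib. The log2 fold change was -0.50 ± 0.12 for ruxolitinib against DMSO and -0.24 ± 0.12 for the combination against GSK-LSD1, the second being -0.15 ± 0.13 without combination replicate 3. The gene lies on chromosome 6, from 137477245 to 137654876, on the minus strand.

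Kcnq1ot1 was higher in ruxolitinib and in GSK-LSD1 libraries than in DMSO libraries, and varied most among replicates. It had 234.1, 198.3 and 105.4 normalised counts in combination libraries, 194.0, 283.6 and 140.3 in ruxolitinib libraries, 149.9, 240.9 and 202.4 in GSK-LSD1 libraries and 89.38, 125.0 and 73.28 in DMSO libraries. All ruxolitinib and all GSK-LSD1 libraries were above all DMSO libraries, while combination replicate 3 lay within the DMSO range, so that the combination overlapped every other group. Means were 179.3 ± 66.4 in combination, 206.0 ± 72.4 in ruxolitinib, 197.7 ± 45.7 in GSK-LSD1 and 95.90 ± 26.5 in DMSO libraries (SD, n = 3 each). Its coefficient of variation within a group was 23.1% to 37.0%, against 6.98% to 10.2% from read counting. The log2 fold change was 1.07 ± 0.25 for ruxolitinib against DMSO and -0.19 ± 0.25 for the combination against GSK-LSD1, and the second minus the first was -1.26 ± 0.36. Without combination replicate 3 the value for the combination against GSK-LSD1 was 0.15 ± 0.22.

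Kcnq1ot1 lies on chromosome 7, from 143203458 to 143296549 on the minus strand, wholly inside Kcnq1, a potassium channel gene on the plus strand that had 0 normalised counts in all 12 libraries. Its longest annotated transcript is the unspliced 93092 bases, with 40.3% GC, the lowest of the 6 genes, which otherwise had 47.9% to 53.9%. The 2 libraries whose deviations rose most with GC content were the highest of the ruxolitinib group and the lowest of the combination group for Kcnq1ot1. GSK-LSD1 replicate 1 came next (rho 0.28) and was the lowest of its group. Without the first 2 libraries, the log2 fold change of Kcnq1ot1 was 0.81 for ruxolitinib against DMSO. It was then 0.15 ± 0.17 for the combination against GSK-LSD1. With values corrected for GC content these changes were 1.20 ± 0.23 and -0.11 ± 0.23.

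Per kilobase of the longest transcript, Lrp12 had the highest level, with group means of 105 to 151 normalised counts, followed by Ppic with 46.7 to 79.9. Tnfrsf8 had 20.4 to 36.4, Eps8 16.2 to 38.9 and Igf2r 10.2 to 17.2, so the ranges of Tnfrsf8 and Eps8 overlapped, as did those of Eps8 and Igf2r. Kcnq1ot1 had 1.93 per kilobase in combination, 2.21 in ruxolitinib, 2.12 in GSK-LSD1 and 1.03 in DMSO libraries.

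For ruxolitinib against DMSO, the libraries did not overlap for 6 of the 6 genes (2 higher and 4 lower), against 23.7% of the 11484 genes tested (10.9% higher and 12.8% lower). For the combination against GSK-LSD1 they did not overlap for 5 of the 6 (1 higher and 4 lower), against 18.1% (8.81% higher and 9.33% lower). At an adjusted p under 0.05 (limma, Benjamini-Hochberg), ruxolitinib against DMSO called 187 genes or 1.63% (115 or 1.00% higher and 72 or 0.627% lower). The combination against GSK-LSD1 called 161 or 1.40% (121 or 1.05% higher and 40 or 0.348% lower). With a correction for GC content the splits were 118 higher and 125 lower, and 167 higher and 115 lower. Both comparisons chose the genes, so nothing is read from the counts of the 6, and their own calls are not given. Of the 10 neutrophil progenitor markers, 4 rose for ruxolitinib against DMSO, among them Mpo (0.64) and Elane (0.89), and 7 rose for the combination against GSK-LSD1, with list medians of 0.45 and 0.70. Of 7 mast cell and basophil markers, 1 rose for ruxolitinib against DMSO, the basophil protease gene Prss34 (0.73 ± 0.09, limma, adjusted p = 0.000454), and none for the combination against GSK-LSD1 (limma, 2 at an unadjusted p under 0.05). The part of these markers in the values of the 6 genes was not tested. The difference between the 2 ruxolitinib effects, with GSK-LSD1 minus without, was 0.48 ± 0.19 for Ppic, 0.17 ± 0.12 for Lrp12, 0.25 ± 0.17 for Eps8, -0.25 ± 0.20 for Igf2r and -0.34 ± 0.18 for Tnfrsf8.

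**Figure D2:**
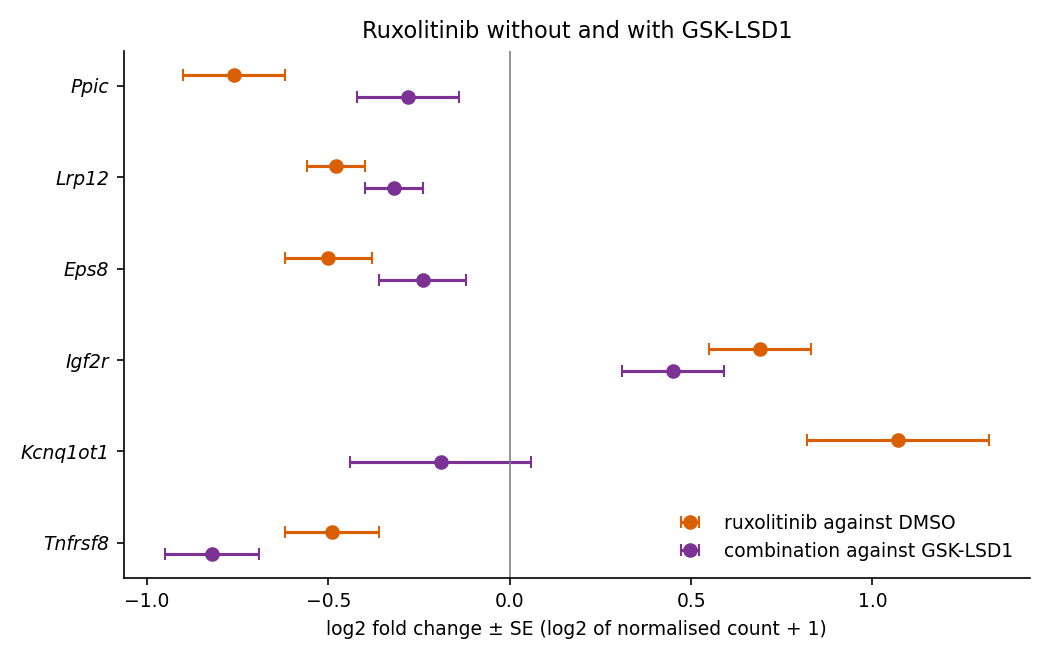
Log2 fold change of the 6 genes for ruxolitinib against DMSO (orange) and for the combination against GSK-LSD1 (purple), with bars for the SE of the fit over 3 libraries a group. Both values have the same sign for Ppic, Lrp12, Eps8, Igf2r and Tnfrsf8, and Kcnq1ot1 has 1.07 and -0.19, its second value turning to 0.15 without combination replicate 3.

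The average effect of GSK-LSD1, taken over cells with and without ruxolitinib, was not used to choose the genes and was tested. Eps8 rose by 0.88 ± 0.09 on the log2 scale, a fold of 1.84 (limma, adjusted p = 4.04e-08, 95% interval 0.70 to 1.06), and all 6 libraries with GSK-LSD1 were above all 6 without. It had the smallest p that an exact two-sided permutation test within the ruxolitinib strata allows, 0.005 over 400 arrangements. Eps8 alone of the 6 passed, where 47.7% of the 11484 genes did (23.1% higher and 24.6% lower). Of the tested markers, 3 of 4 macrophage, 2 of 2 stromal and endothelial, 5 of 7 mast cell and basophil and 4 of 10 neutrophil progenitor genes also rose with GSK-LSD1 on average. The 2 stromal and endothelial genes were Pecam1 and Col1a1, and the rest of that list of 7 was too low to test. In the same test 4 of 4 erythroid, 1 of 7 mast cell and basophil and 4 of 10 neutrophil progenitor genes fell, and the part of these markers in the value of Eps8 was not tested.

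The other 5 genes did not pass this test. Values were -0.22 ± 0.10 for Ppic (limma, adjusted p = 0.0612, 95% interval -0.42 to -0.02), -0.13 ± 0.06 for Lrp12 (0.0702, -0.25 to -0.01) and 0.41 ± 0.18 for Kcnq1ot1 (0.0622, 0.04 to 0.79). Igf2r had -0.20 ± 0.10 (0.0979, -0.40 to 0.00) and Tnfrsf8 -0.10 ± 0.09 (0.382, -0.29 to 0.09). The average for Kcnq1ot1 joins 1.04 ± 0.25 for GSK-LSD1 against DMSO and -0.22 ± 0.25 for the combination against ruxolitinib. That for Ppic joins -0.46 ± 0.14 and 0.02 ± 0.14 in the same order. Exact permutation p-values were 0.08 for Ppic, 0.09 for Lrp12, 0.215 for Kcnq1ot1, 0.105 for Igf2r and 0.29 for Tnfrsf8. Without ruxolitinib replicate 2 and combination replicate 3, a pair left out after the data were seen, Kcnq1ot1 had 0.71 and Lrp12 -0.15. For Kcnq1ot1 the pair held the highest ruxolitinib and the lowest combination value. Leaving it out must therefore raise this average, so the value is a description and no test.

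GSK-LSD1 libraries did not overlap DMSO libraries for 4 of the 6 genes, where 50.9% of genes tested had no overlap (24.4% higher and 26.5% lower), with log2 fold changes of -0.46 ± 0.14 for Ppic, -0.21 ± 0.08 for Lrp12, 0.76 ± 0.12 for Eps8 and 1.04 ± 0.25 for Kcnq1ot1. Combination libraries did not overlap ruxolitinib libraries for 3 of the 6, where 38.5% of genes had no overlap (19.3% higher and 19.1% lower), with 1.01 ± 0.12 for Eps8, -0.32 ± 0.14 for Igf2r and -0.27 ± 0.13 for Tnfrsf8. Combination libraries did not overlap DMSO libraries for 5 of the 6 (51.6% of genes, 24.9% higher and 26.8% lower), with -0.74 ± 0.14 for Ppic, -0.53 ± 0.08 for Lrp12, 0.51 ± 0.12 for Eps8, 0.37 ± 0.14 for Igf2r and -0.76 ± 0.13 for Tnfrsf8. Eps8 was thus above DMSO with both inhibitors and below it with ruxolitinib alone. These comparisons share libraries with those that chose the genes, so they carry no test here.

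**Figure D3:**
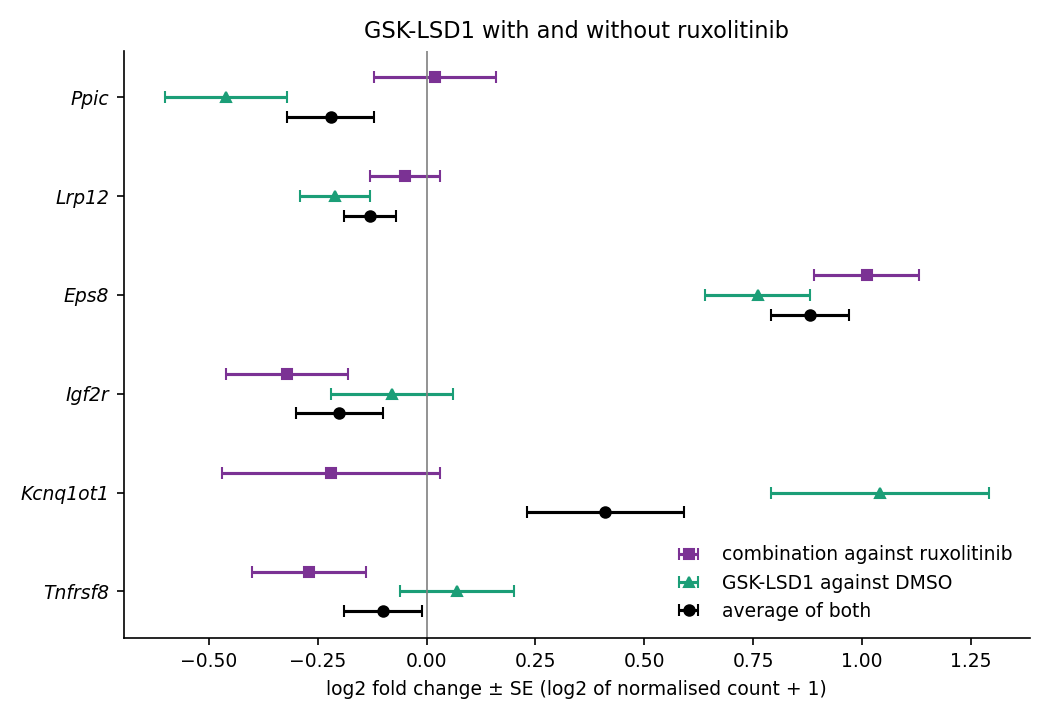
Log2 fold change of the 6 genes for the combination against ruxolitinib, for GSK-LSD1 against DMSO and for the average of both, with bars for the SE of the fit over 3 libraries a group. Eps8 has 1.01, 0.76 and an average of 0.88, and the average lies between -0.22 and 0.41 for the other 5 genes.

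Over the 12 libraries, the levels of Ppic and Lrp12 had a Pearson correlation of 0.86, Lrp12 and Tnfrsf8 0.81, Lrp12 and Igf2r -0.71 and Ppic and Eps8 0.03, and all these points share the treatments. Of the genes with a mean of at least 100 normalised counts, those whose pattern was most like Kcnq1ot1 were Malat1, another long nuclear RNA (0.94, and 0.89 for deviations within groups), Acp2, a lysosomal acid phosphatase (0.92 and 0.86), and Nktr, a large cyclophilin (0.91 and 0.85). Malat1 had 2874, 3148 and 2306 normalised counts in combination libraries, 2715, 3227 and 2217 in ruxolitinib libraries, 2323, 3135 and 2994 in GSK-LSD1 libraries and 1453, 2232 and 1432 in DMSO libraries. As for Kcnq1ot1, replicate 2 was the highest of the ruxolitinib, GSK-LSD1 and DMSO libraries and replicate 3 the lowest of the combination libraries.

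The nearest patterns to Eps8 were Ahcyl2 (0.99), Kctd12 (0.99) and Hif1a (0.98), a transcription factor of the oxygen response, with 0.81 to 0.85 within groups. Patterns like that of Lrp12 included Ywhag, a 14-3-3 protein (0.97), and Sc5d, an enzyme of cholesterol synthesis (0.95), with 0.80 and 0.86 within groups. Ppic was nearest to Msmo1, also of cholesterol synthesis (0.95), Ppp2ca, a catalytic subunit of protein phosphatase 2A (0.95), and Slc39a10, a zinc transporter (0.94), with 0.53 to 0.63 within groups. Igf2r was nearest to Mdga1 (0.90), Tmem8 (0.89) and Lgals9, which encodes galectin-9 (0.87), with 0.45 to 0.62 within groups. Tnfrsf8 was nearest to Nt5e, the ectonucleotidase CD73 (0.88), Mtrf1l (0.87) and Gpr174 (0.86), with 0.09 to 0.13 within groups, so its likeness lay between treatments.

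**Figure D4:**
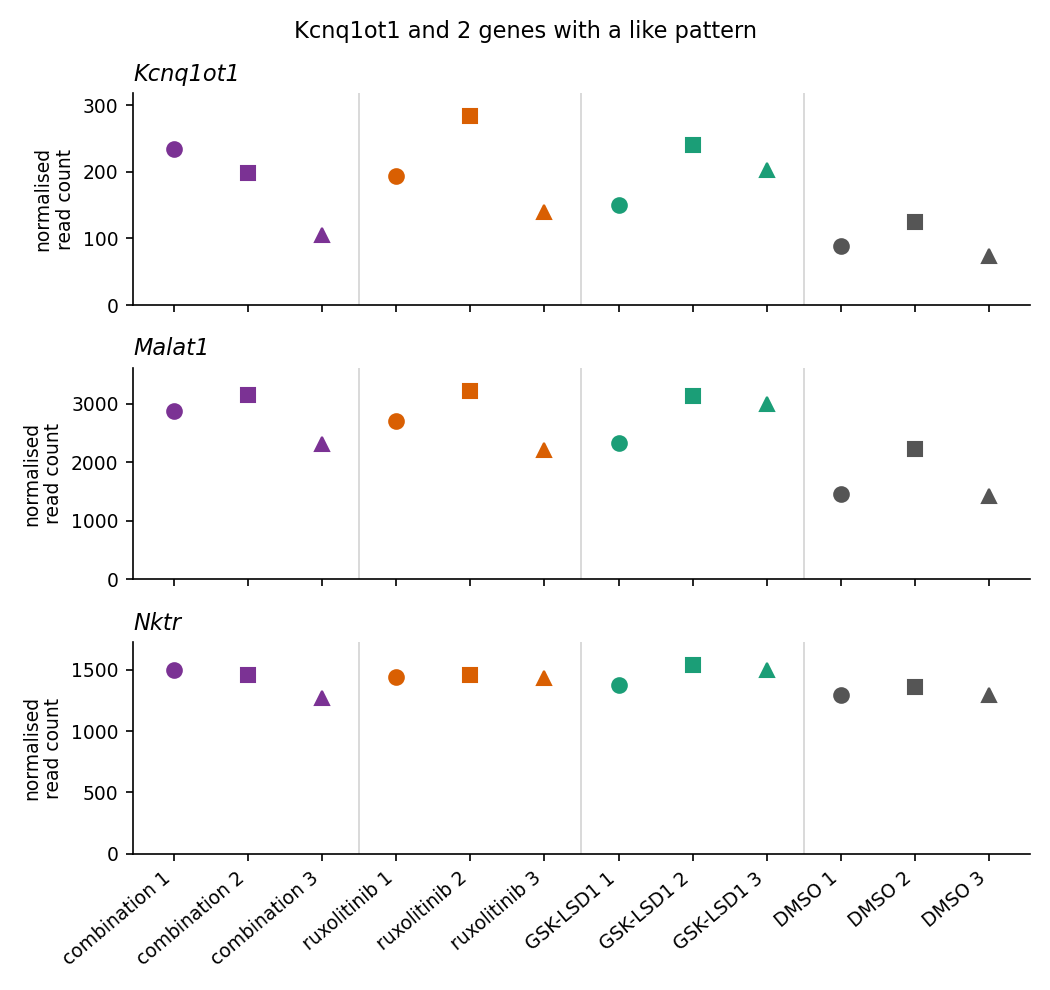
Normalised read counts of Kcnq1ot1, Malat1 and Nktr in each of the 12 libraries, grouped from left to right as combination, ruxolitinib, GSK-LSD1 and DMSO. Ruxolitinib replicate 2 and GSK-LSD1 replicate 2 are the highest of their groups in all 3 panels, and combination replicate 3 is the lowest of its group.

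Of the listed JAK-STAT target genes, none of them among the 6, 18 of 18 were tested, and the same pair fell in both comparisons of ruxolitinib. Of all tested genes 0.627% fell for ruxolitinib against DMSO and 0.348% for the combination against GSK-LSD1. The other 16 of the list were not called in these comparisons. Il2ra, the alpha chain of the IL-2 receptor, averaged 1297 ± 233 normalised counts in ruxolitinib and 1778 ± 98.4 in DMSO libraries (log2 fold change -0.47 ± 0.09, limma, adjusted p = 0.00874), and 1536 ± 81.2 in combination and 2212 ± 141 in GSK-LSD1 libraries (-0.53 ± 0.09, adjusted p = 0.00155). Osm, a cytokine, averaged 663.8 ± 44.1 in ruxolitinib and 823.9 ± 39.9 in DMSO libraries (-0.31 ± 0.06, adjusted p = 0.0165), and 785.5 ± 25 in combination and 996.2 ± 18.1 in GSK-LSD1 libraries (-0.34 ± 0.06, adjusted p = 0.00498). The median over the list was -0.09 for ruxolitinib against DMSO and -0.10 for the combination against GSK-LSD1, against 0.00 and -0.01 over all genes. Without ruxolitinib replicate 2 and combination replicate 3, 4 and 5 genes of the list fell in these comparisons. For ruxolitinib against DMSO the call of Il2ra was lost without DMSO replicate 3 (adjusted p = 0.0727) and that of Osm without any 1 of ruxolitinib replicates 1 and 2 and DMSO replicates 2 and 3 (adjusted p up to 0.094). In the average effect of GSK-LSD1, 7 rose and 4 fell, where 23.1% of all tested genes rose and 24.6% fell. Among those called were Bcl6, a transcriptional repressor (0.92 ± 0.11, limma, adjusted p = 3.98e-07), and Myc (-0.35 ± 0.05, adjusted p = 6.88e-06).

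Of the LDL receptor family other than Lrp12, 13 of 17 genes were tested and none passed for ruxolitinib against DMSO (limma, 2 at an unadjusted p under 0.05, median -0.10), though 1 rose without combination replicate 3, alone or with ruxolitinib replicate 2. For the combination against GSK-LSD1, Lrp8, a reelin receptor, fell to 629.8 ± 27.1 in combination libraries, against 823.4 ± 28.2 in GSK-LSD1 libraries (-0.39 ± 0.07, limma, adjusted p = 0.00185). Sorl1, a sorting receptor, rose to 297.0 ± 25.4 in combination libraries, against 213.7 ± 20.1 in GSK-LSD1 libraries (0.47 ± 0.10, adjusted p = 0.0143), and this call was lost when combination replicate 1, GSK-LSD1 replicate 1 or GSK-LSD1 replicate 3 was left out (adjusted p up to 0.102). On average GSK-LSD1 raised 5 of the list and lowered 2, where 23.1% of all tested genes rose and 24.6% fell. The list was led by Lrp1, an endocytic receptor, at 1.10 ± 0.10.

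Of the TNF receptor superfamily and its TRAF partners, 18 of 29 were tested and none passed in either ruxolitinib comparison (limma, 2 and 4 at an unadjusted p under 0.05), although 1 or 2 did for the combination against GSK-LSD1 in some other settings, scaling by trimmed means (TMM), by quantiles or for GC content among them. In the average effect of GSK-LSD1, 7 of the list rose and 2 fell, where 23.1% of all tested genes rose and 24.6% fell. Tnfrsf23, a decoy receptor, had 2.09 ± 0.20 and Tnfrsf9, which encodes 4-1BB, 0.75 ± 0.10 on that average. Tnfsf8, the ligand of CD30, had group means of 0.9909 to 2.326 normalised counts and was not tested. Of mannose 6-phosphate sorting and IGF receptor genes, 15 of 17 were tested and none passed in either ruxolitinib comparison (limma, 3 and 0 at an unadjusted p under 0.05), with 1 for ruxolitinib against DMSO without combination replicate 3. In the average effect of GSK-LSD1 3 rose and 3 fell, beside the same 23.1% and 24.6% of all tested genes. Those called included Grb10, an imprinted adaptor of insulin and IGF receptors (0.90 ± 0.11, limma, adjusted p = 6.12e-07), and Gnptab, an enzyme that makes the mannose 6-phosphate tag (0.25 ± 0.04, adjusted p = 6.86e-05). Igf2, the ligand of IGF2R, had 0 normalised counts in all libraries.

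Of the other cyclophilins, 15 of 16 were tested, and none passed for ruxolitinib against DMSO or for the combination against GSK-LSD1 (limma, 3 and 2 at an unadjusted p under 0.05), with up to 1 in each in other settings. For the average effect of GSK-LSD1 8 fell and 0 rose, where 24.6% of all tested genes fell and 23.1% rose. The median was -0.21, and those that fell included Ppid (-0.49 ± 0.04, limma, adjusted p = 5.1e-09) and the mitochondrial Ppif (-0.39 ± 0.05, adjusted p = 8.56e-07). Of the EPS8 family and its partners, 14 of 17 were tested and none passed in the ruxolitinib comparisons (limma, 2 and 1 at an unadjusted p under 0.05). In other settings 1 fell for ruxolitinib against DMSO without combination replicate 3, alone or with ruxolitinib replicate 2. Up to 1 was called for the combination against GSK-LSD1. Of that list 2 rose and 2 fell with GSK-LSD1 on average, beside the same 23.1% and 24.6% of all tested genes. Over all settings 2 to 6 were called, with 1 higher and 1 lower when combination replicate 1 or 2 or GSK-LSD1 replicate 2 or 3 was left out and 4 higher and 2 lower without ruxolitinib replicate 2 and combination replicate 3. Capg, an actin capping protein, had 0.86 ± 0.07 and Sos2, an exchange factor, -0.20 ± 0.04. Eps8l1, Eps8l2 and Eps8l3, the paralogs of Eps8, had group means of at most 3.322 normalised counts and were not tested.

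Of 14 imprinted neighbours of Kcnq1ot1, 6 were tested and none passed in the ruxolitinib comparisons (limma, 1 and 1 at an unadjusted p under 0.05, and 1 called for the combination against GSK-LSD1 without combination replicate 2), with medians of -0.04 and 0.07. Kcnq1, Cdkn1c, Phlda2 and Slc22a18 of this list had group means of at most 9.242 normalised counts and were not tested. With GSK-LSD1 on average, Osbpl5, a lipid transfer protein, rose by 0.62 ± 0.06 and Cd81, a tetraspanin, by 1.58 ± 0.18, while Dhcr7, the last enzyme of one route of cholesterol synthesis, fell by 0.29 on the log2 scale. In all 2 of the 6 rose and 2 fell, where 23.1% of all tested genes rose and 24.6% fell. Of 6 imprinted neighbours of Igf2r, 1 was tested, the transporter gene Slc22a3, with -0.05 in both ruxolitinib comparisons (not called) and -0.54 ± 0.08 with GSK-LSD1 on average (limma, adjusted p = 5.62e-06). Of 26 other imprinted genes, 10 were tested and none passed in the ruxolitinib comparisons (limma, 3 and 0 at an unadjusted p under 0.05, and 1 called for ruxolitinib against DMSO without combination replicate 3). Of these 10, 2 rose and 2 fell with GSK-LSD1 on average, beside the same 23.1% and 24.6%.

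Of 13 nuclear long non-coding RNAs other than Kcnq1ot1, 7 were tested. Malat1 alone of these rose for ruxolitinib against DMSO, by 0.69 ± 0.15 on the log2 scale (limma, adjusted p = 0.0207), and its call was lost in 5 of 23 other settings (adjusted p up to 0.149), those with no filter on low values or without ruxolitinib replicate 1, ruxolitinib replicate 2, DMSO replicate 1 or DMSO replicate 3. Neat1, which builds nuclear paraspeckles, had 0.34 ± 0.09 (adjusted p = 0.0619). Without ruxolitinib replicate 2 and combination replicate 3, 2 of the list rose for this comparison. None passed for the combination against GSK-LSD1 (limma, 0 at an unadjusted p under 0.05). With GSK-LSD1 on average 4 rose and 0 fell, where 23.1% of all tested genes rose and 24.6% fell. Those that rose included Neat1 (0.72 ± 0.06, limma, adjusted p = 8.46e-09), Firre (0.62 ± 0.06, adjusted p = 2.1e-08) and Malat1 (0.39 ± 0.10, adjusted p = 0.00431).

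**Figure D5:**
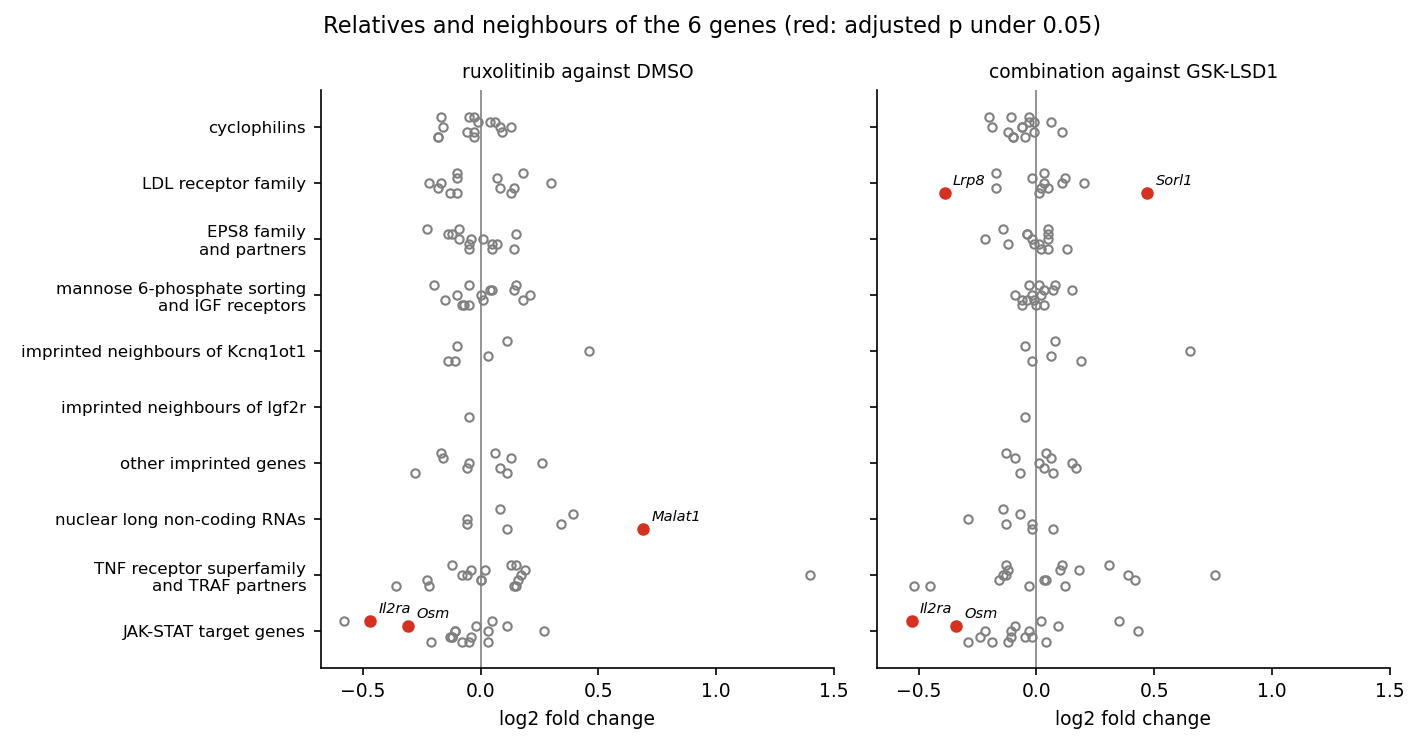
Log2 fold change of the tested genes of the lists for ruxolitinib against DMSO and for the combination against GSK-LSD1. Each point is a gene, and red points have an adjusted p under 0.05 (Malat1, Il2ra and Osm in the first comparison, Lrp8, Sorl1, Il2ra and Osm in the second).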

How the data were processed

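RNA of 12 libraries was sequenced, and 1 table of normalised signal per gene was deposited. Per the submitters' processing notes, STAR, DESeq2 and the builds mm10 and GRCm38 were used, with neither roles nor versions given in the sources used here. Within 0.01, the deposited signal of every library is a whole multiple of a step of 0.9865 to 1.027 plus 1e-05, as read counts divided by a size factor would be. It was called normalised counts and tested on a log scale, with no count model.

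Log2(value + 1) was fitted over the 4 groups with limma 3.58.1 in R 4.3.3 (trend, 8 residual degrees of freedom), for 11484 genes with a mean of at least 10, with Benjamini-Hochberg adjustment over all of them and a threshold of 0.05. The script was tested on simulated data. The average effect of GSK-LSD1 is uncorrelated with both comparisons that chose the genes where groups have the same size and spread. The 6 genes and all gene lists were chosen with earlier results of these data known, so no pattern here is independent support. List genes named in the text are those called for ruxolitinib, then up to 3 per list with the lowest p for GSK-LSD1, and the 3 genes most correlated with each of the 6, of which 1 is not reported here. Other genes named (ligands, overlapping genes, paralogs, Neat1 in the ruxolitinib comparison) were chosen with their values known. Positions are from GENCODE vM21. Of the symbols, 27 were dates and 2 stood more than once. Alternatives were the pseudocount, filter, scaling, GC correction, replicate block, array weights and left-out libraries.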

Additional observations from a re-analysis of the deposited data

How the results depend on the processing

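Of 510 values, 21 are the reported ones, 450 kept their side of the threshold or, with no test, moved by less than their spread, 21 passed the threshold where the reported value had not, 0 fell short of it, and 18 were counts that moved by over 1.5 times. Kcnq1ot1 for the combination against GSK-LSD1, -0.19, changed sign to 0.15 without combination replicate 3, alone or with ruxolitinib replicate 2. Over the settings, GC correction among them, ruxolitinib against DMSO gave -0.84 to -0.68 for Ppic and -0.55 to -0.39 for Lrp12. It gave -0.56 to -0.41 for Eps8, 0.59 to 0.78 for Igf2r and -0.54 to -0.43 for Tnfrsf8. The combination against GSK-LSD1 gave -0.34 to -0.19 for Ppic and -0.35 to -0.25 for Lrp12. It gave -0.30 to -0.15 for Eps8, 0.36 to 0.61 for Igf2r and -0.89 to -0.74 for Tnfrsf8. The average effect of GSK-LSD1 on Eps8 passed in 24 of 24 settings. The other 5 genes passed in 5 (Ppic), 3 (Lrp12), 3 (Igf2r), 9 (Kcnq1ot1) and 1 (Tnfrsf8) of 24. Quantile normalization gave -0.38 for Ppic, -0.32 for Igf2r and -0.24 for Tnfrsf8. For Kcnq1ot1, GC correction gave 0.44, the replicate block 0.41 and the replicate block with GC correction 0.44. Array weights gave -0.25 for Ppic, -0.13 for Lrp12 and 0.61 for Kcnq1ot1, and leaving out ruxolitinib replicate 2 with combination replicate 3 gave -0.15 for Lrp12 and 0.71 for Kcnq1ot1. Leaving out 1 library at a time gave 0.84 to 0.93 for Eps8, -0.27 to -0.19 for Ppic, -0.18 to -0.10 for Lrp12, -0.28 to -0.16 for Igf2r, 0.29 to 0.58 for Kcnq1ot1 and -0.14 to -0.07 for Tnfrsf8. Ppic passed without combination replicate 1, GSK-LSD1 replicate 1 or DMSO replicate 3, Lrp12 without ruxolitinib replicate 2, and Igf2r without GSK-LSD1 replicate 2 or DMSO replicate 3. Kcnq1ot1 passed without combination replicate 3, ruxolitinib replicate 2, GSK-LSD1 replicate 1 or DMSO replicate 2. For the combination against ruxolitinib, Ppic turned to -0.16 with quantile normalization and -0.05 without combination replicate 1. Kcnq1ot1 turned to 0.38 without the pair of libraries, 0.12 without combination replicate 3, 0.04 without ruxolitinib replicate 2 and 0.11 with array weights, and Lrp12 to 0.02 without combination replicate 3 or ruxolitinib replicate 1. For GSK-LSD1 against DMSO, Igf2r turned to 0.01 without GSK-LSD1 replicate 3 or DMSO replicate 1, and Tnfrsf8 to -0.04 with quantile normalization and -0.01 without GSK-LSD1 replicate 1.

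Genes called for ruxolitinib against DMSO, 187 in the reported fit, were 98 with no filter, 112 with the replicate block, 300 with array weights (158 higher, 142 lower) and 317 without the pair of libraries (149 higher, 168 lower). Those for the combination against GSK-LSD1, 161 in the reported fit, were 282 with GC correction, 242 with the replicate block and GC correction (151 higher, 91 lower), 427 with array weights (244 higher, 183 lower) and 270 without the pair (160 higher, 110 lower). Leaving out 1 library gave 32 (DMSO replicate 3) to 551 (combination replicate 3) for ruxolitinib against DMSO, 83 (GSK-LSD1 replicate 2) to 226 (ruxolitinib replicate 2) for the combination against GSK-LSD1, and 4890 to 5746 for the average effect of GSK-LSD1. The causes of these shifts were not tested. Over 18 same-numbered pairs of libraries, deviations from group means correlated at -0.15 to 0.15, against -0.23 to 0.28 over 36 differently numbered pairs. Of 12 libraries, 4 correlated best with their own number. No pairing by replicate number was seen over all genes, which cannot show whether the libraries were paired. Leaving out the pair of libraries, and the same alternatives for the comparisons that share libraries, were added after the data were seen. Read counting alone gives a coefficient of variation of 3.94% to 12.4% per library at the levels of the 6 genes, which limits the precision of each value.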
